A study of Mus musculus with 6 samples.

Results

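Chemokines are small secreted proteins that direct the movement of leukocytes, and the genes described here are the mouse chemokines and chemokine receptors other than the CXCR3 axis, read in whole CT26 tumours with and without PEGylated glutaminase. Members were the protein-coding genes whose symbol is Ccl, Cxcl, Cx3cl, Xcl, Ccr, Cxcr, Cx3cr or Ackr followed by a number and at most 1 letter. Cxcl9, Cxcl10, Cxcl11 and Cxcr3 were left out. The rule used names only, not measured values, and found 55 genes of 40303 gene models, 35 of them ligands and 20 receptors. At least 1 read was found for 49 of the 55, and 36 had a mean of at least 10 normalized counts and entered the test, 25 ligands and 11 receptors.

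CT26 is a colon carcinoma line of the BALB/c mouse strain, and it was grown under the skin of 6 wild-type BALB/c mice. From when the tumours could be felt, 3 mice were injected into the peritoneum with PEGylated glutaminase at 50 IU per kg. This enzyme, whose PEG chains prolong its stay in the blood, breaks down glutamine. The other 3 mice received the vehicle, phosphate-buffered saline with 10% glycerol, and both groups were injected every 3 days and received 2 injections before the tumours were frozen. Each library is the messenger RNA of 1 tumour from 1 mouse, so the p-values measure the spread between mice. The mice's age is not given in the labels, and the whole tumour holds carcinoma cells together with host leukocytes, fibroblasts and vessels.

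The family is named for the spacing of cysteines near the start of the mature protein, which gives CC, CXC, CX3C and C chemokines, and its receptors are coupled to inhibitory G proteins. Many receptors take several ligands, CCR2 ligands draw monocytes out of the bone marrow, CXCR2 ligands draw neutrophils, and CCR7 ligands bring dendritic cells and naive T cells to lymph nodes. Atypical receptors bind chemokines without G protein signalling and remove them. Tumour cells, fibroblasts and macrophages all make chemokines, and tumours use some of these signals to recruit myeloid cells.

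The results below turn on a run of neighbouring CC chemokine genes on chromosome 11, in the order Ccl5, Ccl9, Ccl6, Ccl3 and Ccl4, and on the receptor gene Cx3cr1. The 250 bases before the start of Ccl9 (chr11:83578637-83578886), Ccl6 (chr11:83593088-83593337), Ccl3 (chr11:83649379-83649628) and Cx3cr1 (chr9:120068297-120068546) are shown 5′ to 3′ on the minus strand, from RefSeq on GRCm38.p6, a reference of another mouse strain than BALB/c. Ccl9 and Ccl6 are shown because they are next to each other and were both higher in the treated tumours, Ccl3 because it is the next gene and was lower, and Cx3cr1 because it had the smallest DESeq2 adjusted p among the lower members.
Ccl9: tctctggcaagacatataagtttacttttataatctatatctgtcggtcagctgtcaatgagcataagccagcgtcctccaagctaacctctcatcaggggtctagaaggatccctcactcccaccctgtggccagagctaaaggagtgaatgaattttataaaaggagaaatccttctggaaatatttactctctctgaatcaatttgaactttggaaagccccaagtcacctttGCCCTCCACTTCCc
Ccl6: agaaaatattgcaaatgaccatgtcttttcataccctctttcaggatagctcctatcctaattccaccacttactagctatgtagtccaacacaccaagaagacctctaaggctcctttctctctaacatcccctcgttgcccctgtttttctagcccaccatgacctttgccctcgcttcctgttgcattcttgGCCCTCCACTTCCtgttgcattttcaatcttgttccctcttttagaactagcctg
Ccl3: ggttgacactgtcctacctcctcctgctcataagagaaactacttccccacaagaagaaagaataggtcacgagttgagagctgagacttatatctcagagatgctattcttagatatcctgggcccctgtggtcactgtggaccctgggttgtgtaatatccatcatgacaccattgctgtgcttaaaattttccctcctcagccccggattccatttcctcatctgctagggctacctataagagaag
Cx3cr1: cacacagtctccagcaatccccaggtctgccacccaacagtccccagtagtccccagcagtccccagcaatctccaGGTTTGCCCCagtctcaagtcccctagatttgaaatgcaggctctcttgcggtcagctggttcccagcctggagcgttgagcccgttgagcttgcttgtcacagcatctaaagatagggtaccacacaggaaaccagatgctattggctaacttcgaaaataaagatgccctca
In Ccl9 and Ccl6 the capitals mark the longest run of bases that both windows share, 13 bases long, which begins 14 bases before the start of Ccl9 and 55 bases before that of Ccl6. This run was found in 5 of 32851 windows of the same length (0.0152%, either strand), with those of Ccl9 and Ccl6 among them. No other of the 41 member promoters that could be matched held it. Since the run was picked by comparing these 2 windows, its rarity tests nothing about them. In Cx3cr1 the capitals mark a match to GGGNNNNNCC, the outline of an NF-kB site, read on either strand and lying 174 bases before the start. That pattern was present in 45.8% of all windows and in 20 of the 41 member windows. Ccl9 held 1 such match, 35 bases before its start, and Ccl6 and Ccl3 held none. The interferon response outline GAAANNGAAA was in 2.98% of all windows and in 1 member window, that of Cxcl14. The STAT outline TTCNNNGAA was in 7.02% of windows and in those of Ccl17, Ccr6 and Cxcl14, and the ETS-type word GAGGAAG was in 10.6% of windows and in 6 member windows, none of them one of the 4 printed here. These patterns were searched on both strands and can overlap one another, and a match is a description of letters, not a measured site.

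The libraries held 16455052 to 16791267 reads in the PEG-glutaminase group and 17380129 to 18051480 in the vehicle group, and values are given as normalized counts, reads divided by a size factor of the library. Summed T and NK cell markers ran from 5403 to 6129 in vehicle tumours and stood at 2382, 842 and 4610 in PEG-glutaminase tumours 1 to 3. Summed dendritic cell markers ran from 20575 to 31545 in vehicle and from 11689 to 15012 in PEG-glutaminase tumours. That list includes antigen-presenting MHC class II genes and Itgax as well as Xcr1, and the share of each in the sum is not given here. Macrophage and monocyte markers (60332 to 80991 against 68073 to 76704), neutrophil markers (2017 to 2263 against 1144 to 2074) and fibroblast markers (52753 to 71535 against 59365 to 75332) overlapped between the groups. Keratinocyte markers summed to 8236 in vehicle 1 and to between 95.04 and 290 in the other 5 libraries, so vehicle 1 stands apart in these markers. Skeletal muscle markers summed to 576, 268 and 1086 in vehicle 1 to 3 and to 193, 1662 and 135 in PEG-glutaminase 1 to 3. Endothelial (5611) and lymphatic endothelial (2522) sums were highest in PEG-glutaminase 2. Summed platelet and erythroid markers were higher in every treated tumour (632 to 731 against 1051 to 1427), and 1 of their 5 tested genes, a globin, passed the limma test. Summed markers of colon epithelium were lower in every treated tumour (4691 to 5435 against 2583 to 3924), and most of each sum was Krt20. Of the 6 tested genes of that list 4 differences were below 0 and 2 above, 1 of those 2 without overlap between the groups. Krt20 stood at 4317, 4464 and 5226 normalized counts in vehicle and at 3652, 2349 and 3374 in PEG-glutaminase tumours. Over all libraries Epcam ranged from 2.07 to 58.0 and Vil1 from 0 to 4.12.

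**Figure D1:**
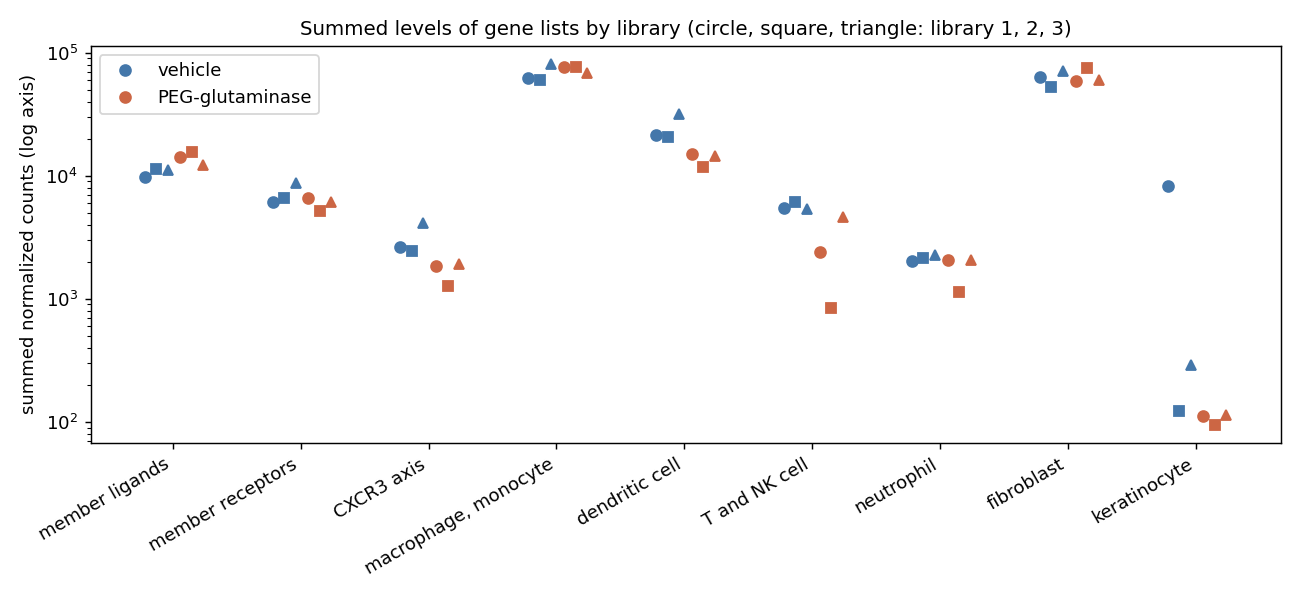
Summed normalized counts (log axis) of the chemokine ligands, the receptors, the CXCR3 axis and the marker genes of 6 cell types in each library, with blue for vehicle, orange for PEG-glutaminase and the symbol shape for the library number. The ligand sums did not overlap between the groups, the T and NK cell sum was lowest in PEG-glutaminase 2 at 842, and the keratinocyte sum was highest in vehicle 1 at 8236.

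Members together took 0.0934%, 0.101% and 0.117% of reads in vehicle tumours 1 to 3 and 0.121%, 0.125% and 0.109% in PEG-glutaminase tumours 1 to 3. The ligands summed to 9736, 11262 and 11188 normalized counts in vehicle and to 14303, 15543 and 12333 in PEG-glutaminase tumours, so the treated tumours were all higher. Without Ccl6 and Ccl9 the ligand sums overlapped, at 7067 to 9110 in vehicle and 7810 to 8567 in PEG-glutaminase tumours. Receptors summed to 6113, 6578 and 8778 in vehicle and to 6573, 5207 and 6150 in PEG-glutaminase tumours, which overlap. In bulk tissue fewer cells of a type and less RNA per cell cannot be told apart, here and in every result that follows. Per kilobase of transcript the highest mean levels among members over the 6 libraries were those of Ccl8 (2714), Ccl6 (1836), Ccl2 (1728), Ccl12 (1229) and Ccl7 (1184), all of them CC ligands of monocytes and macrophages.

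By limma, with adjustment over all 13557 tested genes, 0 of the 36 tested members passed an adjusted p of 0.05 in either direction, against 0.00738% of all genes called higher and 0.0295% called lower. At an unadjusted limma p under 0.05, 3 members were higher and 6 lower (8.33% and 16.7% of members), against 8.92% and 9.51% of all genes. DESeq2, run on the whole reads recovered from the values, called Ccl6 and Ccl9 higher and Cx3cr1 and Cxcl16 lower, which is 5.56% of members in each direction against 1.59% of all genes called higher and 2.0% called lower. edgeR called 0 members and 0.0% of all genes. The groups of 3 did not overlap in 3 members that were higher (8.33%, against 13.1% of all genes). The same held for 6 that were lower (16.7%, against 12.7%). At this filter the shares do not stand far from those of all genes. At a mean of at least 50 the lower members were 25.0%, against 13.0% of all genes, and the higher ones 12.5%, against 14.2%. Without a filter, which lets in members near 0, the lower members were 16.3%, against 8.66%, and the higher ones 6.12%, against 9.81%. With fewer libraries the shares grew among all genes too. Without vehicle 3 the higher members were 8 of 35 (22.9%, against 18.8% of all genes), without PEG-glutaminase 3 they were 6 of 35 (17.1%, against 19.4%), and with vehicle 1 and PEG-glutaminase 2 both left out the lower members were 12 of 35 (34.3%, against 24.1%). 
On the log2 scale the median difference, PEG-glutaminase minus vehicle, was -0.14 over the members and -4.97e-05 over all tested genes. Taken by library, the medians of the members overlapped between the groups. Among ligands 11 differences were above 0 and 14 below, with a median of -0.04. Among receptors 2 were above 0 and 9 below, with a median of -0.42. The DESeq2 calls of Ccl6 and Ccl9 were also made with each of the 6 libraries left out, whereas its lower calls changed. They numbered 0 without vehicle 3 (against 1.06% of all genes), 1 without vehicle 2 or PEG-glutaminase 1 (Cx3cr1, against 0.862% and 1.104%), 1 without PEG-glutaminase 2 (Cxcr6, against 0.983%) and 3 without PEG-glutaminase 3 (Ccl4, Cx3cr1 and Cxcl16, against 3.23%).

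**Figure D2:**
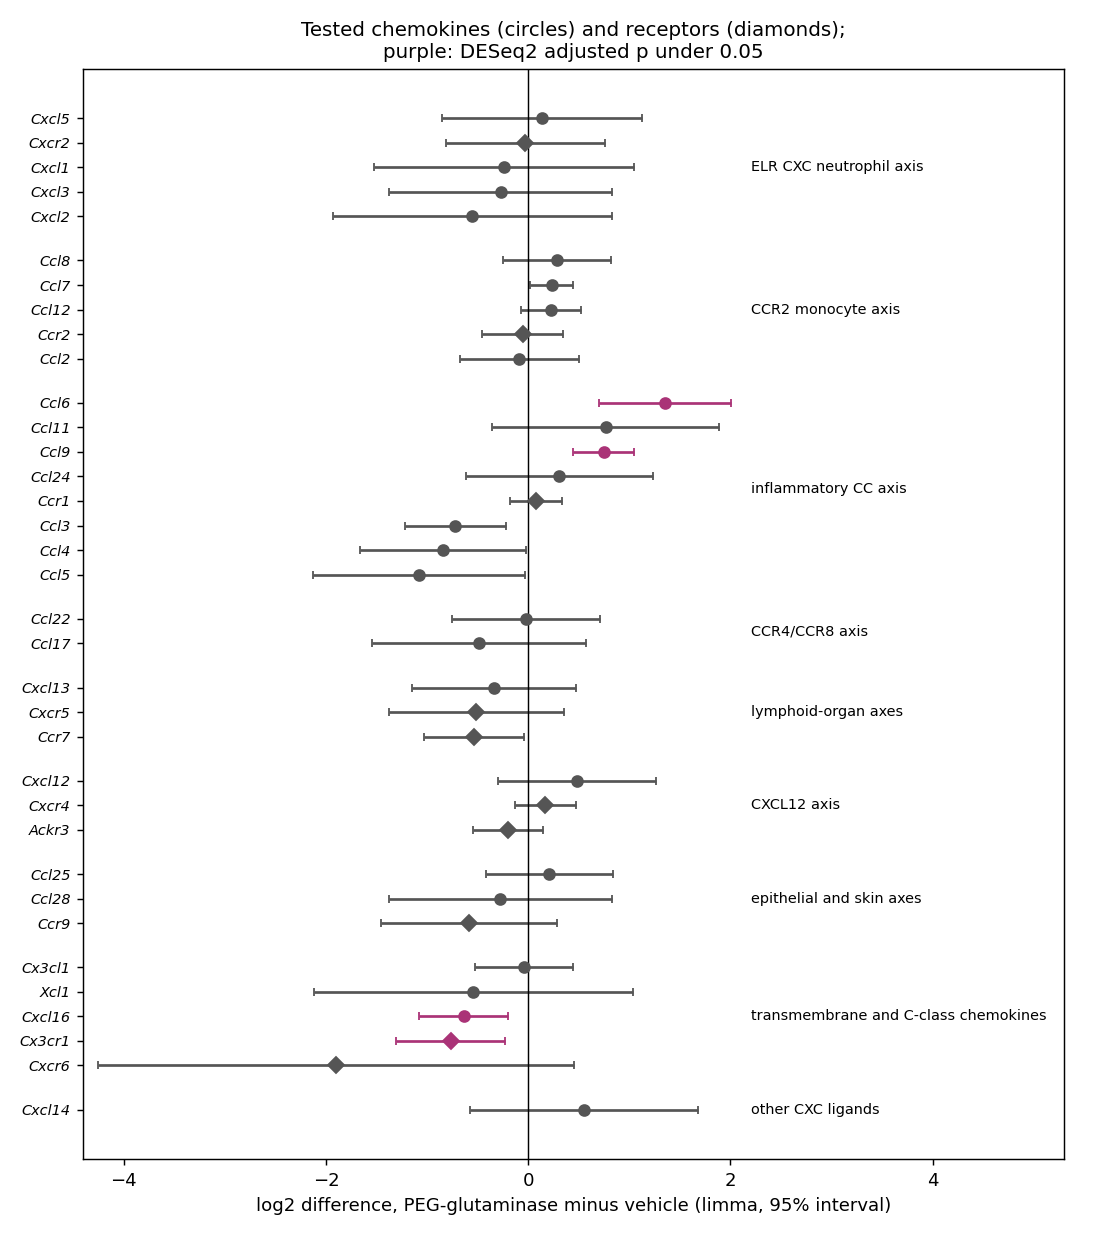
Log2 difference (PEG-glutaminase minus vehicle, x axis) with its 95% interval for 35 of the 36 tested members, ordered by role, with circles for ligands, diamonds for receptors and purple for a DESeq2 adjusted p under 0.05. Ccl6 (1.35) and Ccl9 (0.75) lie to the right with intervals above 0, and the 5 transmembrane and C-class genes all lie to the left of 0, Cx3cl1 nearest to it at -0.04.

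Among the inflammatory CC ligands, genes that lie side by side differed in opposite directions between the groups. Ccl6 (ENSMUSG00000018927), a rodent CC chemokine of macrophages, stood at 1510, 1827 and 1110 normalized counts in vehicle tumours 1 to 3 and at 3709, 4883 and 2823 in PEG-glutaminase tumours 1 to 3. All treated tumours lay above all vehicle tumours, and PEG-glutaminase 2 was the highest. The mean was 2.57-fold higher, 3805 ± 1034 against 1482 ± 359 (SD, n = 3 per group). The log2 difference was 1.35 ± 0.26 (SE, 95% interval 0.70 to 2.01), with a limma adjusted p of 0.129 and a DESeq2 adjusted p of 7.28e-09. edgeR gave an adjusted p of 0.145 for Ccl6, above the threshold as in limma. Vehicle 1 stood apart in keratinocyte markers and PEG-glutaminase 2 in T and NK cell markers. Without both of these libraries the log2 difference was 1.18 for Ccl6 and 0.69 for Ccl9.

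Ccl9 (ENSMUSG00000019122), another rodent CC chemokine, which acts on CCR1 and draws myeloid cells, stood at 1160, 1369 and 968 normalized counts in vehicle and at 2027, 2120 and 1699 in PEG-glutaminase tumours. The lowest treated tumour lay above the highest vehicle tumour. Its mean was 1.67-fold higher, 1949 ± 221 against 1166 ± 201, a log2 difference of 0.75 ± 0.13 (95% interval 0.45 to 1.05, limma adjusted p = 0.111). DESeq2 gave an adjusted p of 0.000107 and edgeR one of 0.145. The number of Ccl6 reads per Ccl9 read was 1.30, 1.33 and 1.15 in vehicle and 1.83, 2.30 and 1.66 in PEG-glutaminase tumours. Ccl6 thus stood higher relative to Ccl9 in every treated tumour, and both genes were higher in the same libraries.

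Ccl3, a CC chemokine made by activated macrophages and T cells, stood at 126, 110 and 154 normalized counts in vehicle and at 88.04, 57.4 and 92.6 in PEG-glutaminase tumours. The groups did not overlap, and PEG-glutaminase 2 was lowest. The Ccl3 mean was 1.64-fold lower (79.3 ± 19.1 against 130 ± 22.4), a log2 difference of -0.72 ± 0.22 with a limma adjusted p of 0.161 and a DESeq2 adjusted p of 0.0991. Ccl4, a CC chemokine made by the same cells, stood at 130, 113 and 179 in vehicle and at 75.6, 46.5 and 128 in PEG-glutaminase tumours. Here PEG-glutaminase 3 lay above vehicle 2, so the groups overlapped. The log2 difference of Ccl4 was -0.84 ± 0.35 with a limma adjusted p of 0.261, and -0.49 without PEG-glutaminase 2. DESeq2 gave Ccl4 an adjusted p of 0.191, and of 0.0124 without PEG-glutaminase 3.

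Ccl5, a CC chemokine abundant in effector T cells and NK cells, stood at 151, 124 and 277 normalized counts in vehicle and at 107, 45.5 and 109 in PEG-glutaminase tumours. Every treated tumour was below every vehicle tumour. The log2 difference was -1.08 ± 0.44 (95% interval -2.13 to -0.04, limma adjusted p = 0.258, DESeq2 adjusted p = 0.052), and -0.67 without PEG-glutaminase 2. Per 1000 normalized counts of the summed T and NK cell markers, Ccl5 ran from 20.2 to 51.2 in vehicle and from 23.7 to 54.1 in PEG-glutaminase tumours, so relative to those markers the groups overlapped. Ccl4 per 1000 of the same markers overlapped as well. The part of T and NK cell content in the values of Ccl4 and Ccl5 was not tested.

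The levels of neighbouring genes were also compared within each library, where the size factor cancels. Ccl6 over Ccl3 was 12.02, 16.6 and 7.20 in vehicle tumours 1 to 3 and 42.1, 85.1 and 30.5 in PEG-glutaminase tumours 1 to 3. Ccl9 over Ccl3 was 9.24, 12.5 and 6.29 in vehicle and 23.0, 36.9 and 18.4 in PEG-glutaminase tumours. Since Ccl6 and Ccl9 were each higher and Ccl3 lower in every treated tumour, these ratios could not overlap, and they are given only for their size. Ccl3 over Ccl4 ranged from 0.863 to 0.974 in vehicle and from 0.726 to 1.23 in PEG-glutaminase tumours, so that pair did not separate the groups.
The gene next to Ccl4 on the other side is Wfdc17, which is no chemokine and encodes a small secreted whey acidic protein. It was looked at after the values of its neighbours were known, and it stood at 224, 216 and 219 in vehicle and at 457, 848 and 356 in PEG-glutaminase tumours. Its log2 difference was 1.23 ± 0.31, with a limma adjusted p of 0.149 and a DESeq2 adjusted p of 0.000107.

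**Figure D3:**
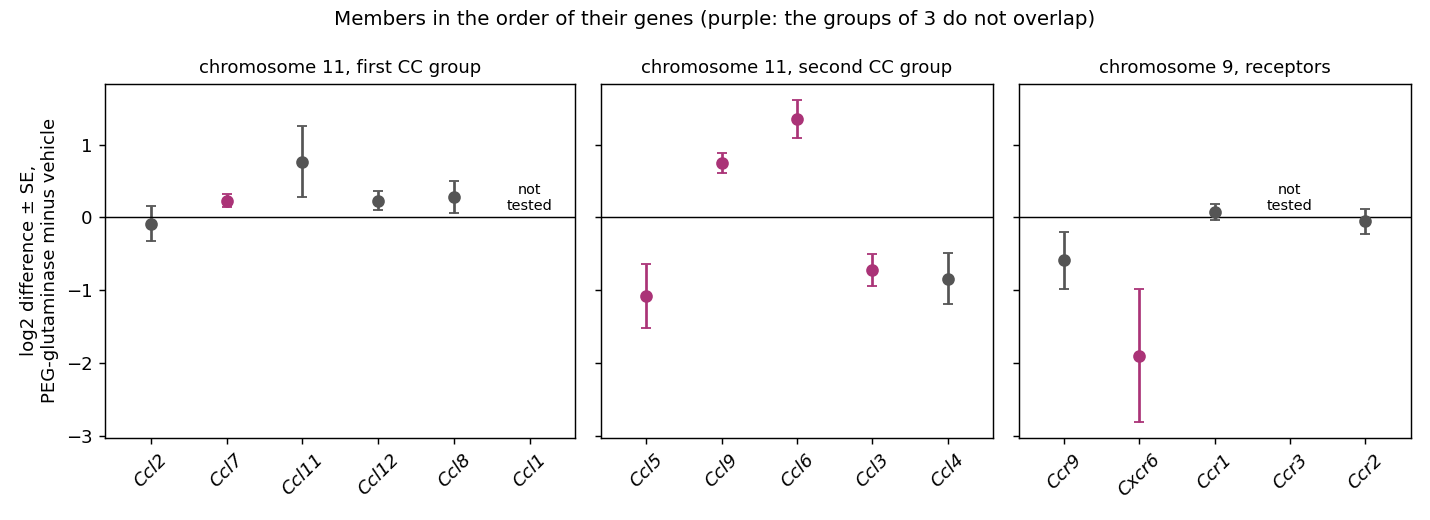
Log2 difference ± SE (PEG-glutaminase minus vehicle) of members in the order of their genes in 2 groups of CC chemokines on chromosome 11 and 1 group of receptors on chromosome 9, with purple where the groups of 3 did not overlap and distances not to scale. In the middle panel Ccl9 (0.75) and Ccl6 (1.35) stand above 0 between Ccl5 (-1.08) on one side and Ccl3 (-0.72) and Ccl4 (-0.84) on the other.

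Macrophages are a main source of Ccl6 and Ccl9, and the members were set beside the summed macrophage and monocyte markers of the same library. Per 1000 normalized counts of those markers, Ccl6 ran from 13.7 to 30.3 in vehicle and from 41.5 to 64.2 in PEG-glutaminase tumours. Ccl9 ran from 11.96 to 22.7 in vehicle and from 25.0 to 27.9 in PEG-glutaminase tumours. Neither ratio overlapped between the groups, as neither gene did by itself, and the marker sum includes Mrc1, described below. The part of macrophage content in the values of Ccl6 and Ccl9 was not tested. Of the 14 tested genes of that marker list 8 differences were above 0 and 6 below, with a median of 0.09. Its member Mrc1, the mannose receptor of tissue macrophages, stood at 2117, 2078 and 2655 in vehicle and at 5036, 8955 and 4725 in PEG-glutaminase tumours (log2 difference 1.40 ± 0.27, limma adjusted p = 0.124, DESeq2 adjusted p = 0.00259). Mrc1 was the only one of the 14 tested genes of that list that DESeq2 called. PEG-glutaminase 2 was the highest library for Mrc1, Ccl6 and Ccl9, but also for Wfdc17, Cxcl12 and Cxcl14. The part of Mrc1-bearing cells in the values of Ccl6 and Ccl9 was not tested.

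Ccr1, a receptor of Ccl6 and Ccl9 on monocytes and neutrophils, stood at 794, 938 and 1075 normalized counts in vehicle and at 1047, 980 and 914 in PEG-glutaminase tumours. The groups overlapped, with a log2 difference of 0.08 ± 0.11 (95% interval -0.18 to 0.33, limma adjusted p = 0.747). Ccr3, the eotaxin receptor of eosinophils, had 6 reads over the vehicle libraries and 9 over the PEG-glutaminase libraries. Its ligands Ccl11 and Ccl24 were low and overlapped between the groups, at 15.5 to 41.2 and 13.7 to 21.6 normalized counts in vehicle and 24.9 to 79.2 and 15.4 to 42.6 in PEG-glutaminase tumours.

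Of the 4 tested ligands grouped with CCR2, a receptor of inflammatory monocytes, 3 had a log2 difference above 0 and 1 below, and none passed the test. Ccl8 among them was also listed as a ligand of CCR8, so it does not stand for CCR2 alone. Ccl7 stood at 901, 941 and 778 normalized counts in vehicle and at 1092, 992 and 988 in PEG-glutaminase tumours. The groups did not overlap, but the mean was only 1.17-fold higher (1024 ± 58.9 against 873 ± 84.9), a log2 difference of 0.23 ± 0.10 with a limma adjusted p of 0.239 and a DESeq2 adjusted p of 0.291. Ccl2, the main CCR2 ligand, stood at 1592, 2227 and 1981 in vehicle and at 2256, 1287 and 2020 in PEG-glutaminase tumours. PEG-glutaminase tumours held both the highest and the lowest value, and the log2 difference was -0.09 ± 0.24 (95% interval -0.67 to 0.50, limma adjusted p = 0.877).
Ccl8 ranged from 1028 to 1645 in vehicle and from 1282 to 1868 in PEG-glutaminase tumours, and Ccl12 from 533 to 739 and from 651 to 787. Their log2 differences were 0.29 ± 0.22 and 0.23 ± 0.13, with limma adjusted p-values of 0.514 and 0.370. The receptor Ccr2 stood at 1095, 1057 and 1700 in vehicle and at 1226, 1167 and 1232 in PEG-glutaminase tumours, a log2 difference of -0.05 ± 0.17 with a limma adjusted p of 0.896. The vehicle tumours spread more widely than the treated ones, with vehicle 3 far above the other 2. These genes also lie together on chromosome 11, in the order Ccl2, Ccl7, Ccl11, Ccl12, Ccl8 and Ccl1. Of the 5 tested genes in this run 4 had a difference above 0, and Ccl1, a CCR8 ligand, had 20 reads in vehicle and 9 in PEG-glutaminase libraries and was not tested.

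The 2 membrane-bound chemokines and their receptors had differences below 0, with a median of -0.70 over these 4 genes, and with the secreted C chemokine Xcl1 the median over 5 genes was -0.64. Cxcl16, which is made as a membrane-bound scavenger of oxidised lipid by macrophages and dendritic cells and sheds a soluble ligand of CXCR6, stood at 1206, 1286 and 1767 normalized counts in vehicle and at 997, 713 and 1023 in PEG-glutaminase tumours. Every treated tumour was below every vehicle tumour. Its mean was 1.56-fold lower (911 ± 172 against 1420 ± 303), and the log2 difference of -0.64 ± 0.19 had a limma adjusted p of 0.171, a DESeq2 adjusted p of 0.0129 and an edgeR adjusted p of 0.155. Without vehicle 3 the DESeq2 call was lost, as it was without vehicle 2, PEG-glutaminase 1 or PEG-glutaminase 2. The exons of Cxcl16 overlap those of Zmynd15 on the other strand over 18.3% of their length, and the strand setting of the counting is not given, so reads of the 2 genes there cannot be told apart. Zmynd15 itself stood at 260, 255 and 269 in vehicle and at 199.9, 110 and 231 in PEG-glutaminase tumours, lower in every treated tumour as well.

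Cxcr6, the CXCL16 receptor of effector and resident memory T cells, stood at 144, 195 and 232 normalized counts in vehicle and at 91.1, 11.9 and 106 in PEG-glutaminase tumours. The groups did not overlap, and PEG-glutaminase 2 lay far below all others. The log2 difference was -1.90 ± 0.91 (95% interval -4.25 to 0.45, limma adjusted p = 0.338, DESeq2 adjusted p = 0.347). Without PEG-glutaminase 2 it was -0.92, and DESeq2 then called Cxcr6 lower, with a log2 difference of -0.95 and a DESeq2 adjusted p of 0.0237. The T and NK cell markers showed the same order among the treated tumours, with PEG-glutaminase 2 lowest and PEG-glutaminase 3 highest. In that list 15 of the 16 tested genes had a difference below 0, with a median of -1.45, or -0.56 without PEG-glutaminase 2. Per 1000 normalized counts of the summed markers, Cxcr6 ran from 26.4 to 42.8 in vehicle and from 14.1 to 38.3 in PEG-glutaminase tumours, which overlap. The part of T and NK cell content in Cxcr6 was not tested.

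Cx3cr1, the fractalkine receptor of monocytes, many tissue macrophages and some cytotoxic lymphocytes, stood at 678, 629 and 1102 normalized counts in vehicle and at 533, 389 and 459 in PEG-glutaminase tumours. Every treated tumour was below every vehicle tumour, and vehicle 3 was highest. Its mean was 1.74-fold lower (460 ± 72.2 against 803 ± 260), a log2 difference of -0.77 ± 0.23 (95% interval -1.31 to -0.23). limma gave it an adjusted p of 0.175, DESeq2 one of 0.00775 and edgeR one of 0.151. The DESeq2 call of Cx3cr1 was lost without vehicle 3 and without PEG-glutaminase 2. Per 1000 normalized counts of macrophage and monocyte markers, Cx3cr1 ran from 10.4 to 13.6 in vehicle and from 5.11 to 6.95 in PEG-glutaminase tumours. Cxcl16 on the same scale ran from 19.5 to 21.8 and from 9.37 to 15.0. Neither overlapped between the groups, nor did Ccl3, at 1.82 to 2.03 and 0.755 to 1.36, whereas Ccr1 and Ccr2 on that scale did. Cx3cr1, Cxcl16 and Ccl3 did not overlap by themselves either, and the part of macrophage content was not tested. The summed dendritic cell and T and NK cell markers were also lower in every treated tumour, as given above, and their part in the values of Cx3cr1 and Cxcl16 was not tested.
Cx3cl1, the membrane-bound ligand of CX3CR1 made by endothelium and epithelium, stood at 51.2, 46.1 and 54.9 in vehicle and at 42.5, 54.4 and 51.4 in PEG-glutaminase tumours. Its log2 difference was -0.04 ± 0.22 (95% interval -0.52 to 0.44, limma adjusted p = 0.936), so the receptor stood lower beside a ligand whose groups overlapped. Xcl1, the C chemokine of NK and CD8 T cells, was low and scattered, at 9.66, 25.5 and 26.5 in vehicle and 4.14, 13.9 and 31.9 in PEG-glutaminase tumours. Its receptor Xcr1, a marker of cross-presenting dendritic cells whose name falls outside the rule, stood at 61.8, 68.7 and 82.4 in vehicle and at 33.1, 39.6 and 35.0 in PEG-glutaminase tumours (log2 difference -0.96 ± 0.22, limma adjusted p = 0.114, DESeq2 adjusted p = 0.0486).

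**Figure D4:**
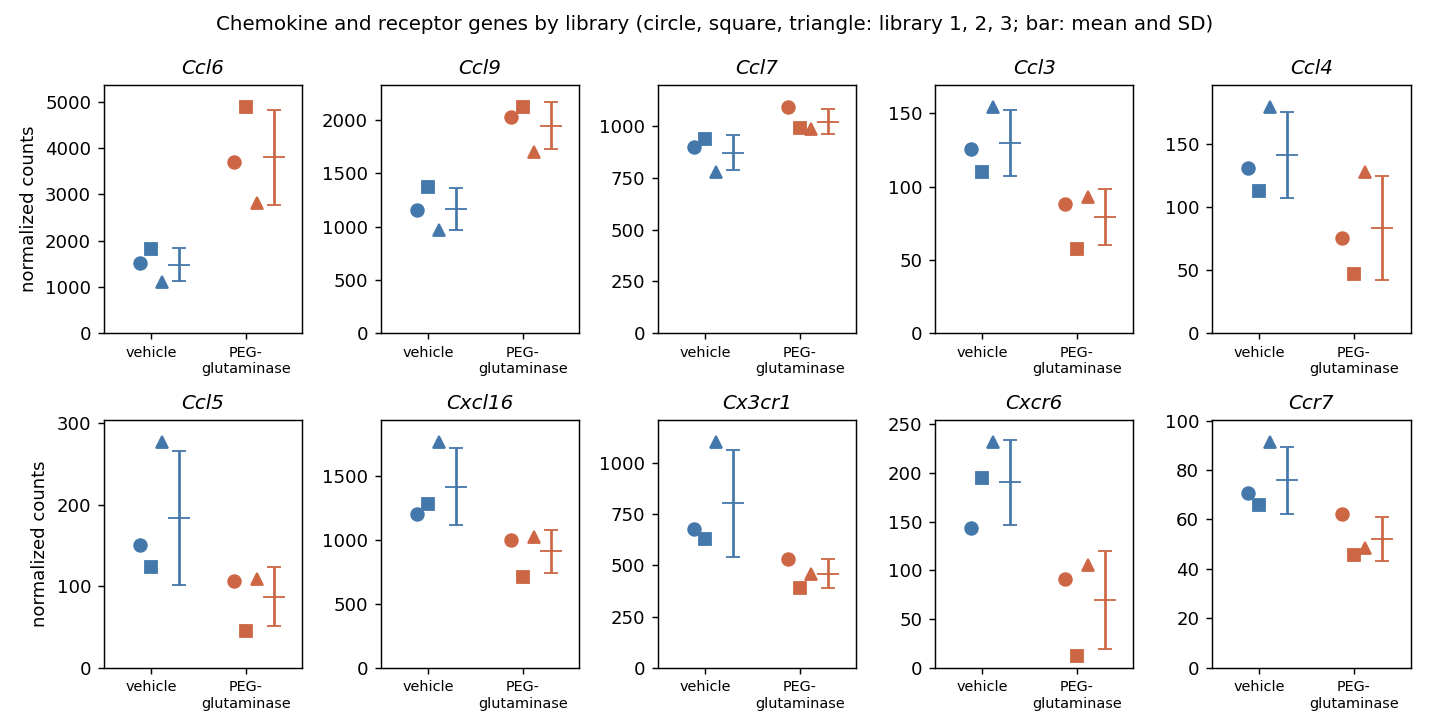
Normalized counts (y axis, each panel from 0) of the 10 members with an unadjusted limma p under 0.05 or groups that do not overlap, in 3 vehicle (blue) and 3 PEG-glutaminase (orange) tumours, with the symbol shape for the library number and the bar for mean and SD. Ccl6, Ccl9 and Ccl7 stand higher in every treated tumour, Ccl4 overlaps, and the other 6 stand lower in every treated tumour, with Cxcr6 at 11.9 in PEG-glutaminase 2.

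The genes of lymph node homing were low, and the 3 tested members had a median of -0.51. Ccr7, which guides mature dendritic cells and naive T cells, stood at 70.5, 65.7 and 91.2 normalized counts in vehicle and at 62.1, 45.5 and 48.4 in PEG-glutaminase tumours. Every treated tumour was below every vehicle tumour, with a log2 difference of -0.53 ± 0.22 (limma adjusted p = 0.240, DESeq2 adjusted p = 0.328). Dendritic cell markers were lower in the same tumours, 10 of 13 tested genes with a difference below 0 and a median of -0.82, and their part in the value of Ccr7 was not tested. No read was found for the CCR7 ligands Ccl21a, Ccl21b and Ccl21d. These copies share 71.6%, 100% and 97.1% of their 50-base words with other genes, so a level of 0 is uncertain for them. Ccl19, another CCR7 ligand, was not among the members found by the rule and is not covered here. Cxcr5, the receptor of B cell follicles, ranged from 15.5 to 21.6 in vehicle and from 9.32 to 20.8 in PEG-glutaminase tumours, and its ligand Cxcl13 from 14.7 to 24.5 and from 11.9 to 20.7. Both pairs of ranges overlapped.

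The neutrophil axis of CXC ligands that carry the ELR motif was low and scattered in both groups. Cxcl1 ranged from 91.2 to 227 normalized counts in vehicle and from 59.4 to 184 in PEG-glutaminase tumours. Cxcl2 ranged from 40.2 to 87.9 and from 19.8 to 85.4, Cxcl3 from 12.8 to 45.1 and from 13.9 to 31.1, and Cxcl5 from 20.3 to 56.9 and from 32.9 to 68.3. In each the groups overlapped, with log2 differences of -0.24 ± 0.52, -0.55 ± 0.57, -0.27 ± 0.49 and 0.13 ± 0.43, and limma adjusted p-values between 0.632 and 0.896. Cxcl2 and Cxcl3 share 5.35% and 3.89% of their 50-base words with other genes, which may split reads between near copies. Cxcr2, the receptor of these ligands on neutrophils, ranged from 11.8 to 22.6 in vehicle and from 15.8 to 18.6 in PEG-glutaminase tumours, a log2 difference of -0.03 ± 0.35. Cxcr1 had 1 read in vehicle and 2 in PEG-glutaminase libraries, and Cxcl15 had none.

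Of the CXCL12 axis, which retains stem cells in the marrow and is made by fibroblasts in tumours, Cxcl12 stood at 271, 253 and 412 normalized counts in vehicle and at 425, 622 and 293 in PEG-glutaminase tumours. The groups overlapped, with a log2 difference of 0.48 ± 0.32 (limma adjusted p = 0.450), which was 0.21 without PEG-glutaminase 2, the library with the highest fibroblast marker sum. Its receptor Cxcr4 ranged from 249 to 313 in vehicle and from 269 to 337 in PEG-glutaminase tumours. Ackr3, an atypical receptor that scavenges CXCL12 and was the most abundant receptor per kilobase at 502, stood at 1350, 1708 and 1884 in vehicle and at 1552, 1175 and 1561 in PEG-glutaminase tumours. It overlapped as well, with a log2 difference of -0.20 ± 0.15 (95% interval -0.55 to 0.14, limma adjusted p = 0.489). Cxcl14, a CXC ligand of fibroblasts and epithelium, ranged from 581 to 853 in vehicle and stood at 936, 1677 and 579 in PEG-glutaminase tumours. Its log2 difference was 0.55 ± 0.43 (limma adjusted p = 0.536), and 0.16 without PEG-glutaminase 2.

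Ligands and receptors of regulatory and type 2 T cells were low in every library. Ccl22, a CCR4 ligand of dendritic cells, ranged from 37.7 to 60.8 normalized counts in vehicle and from 32.9 to 77.2 in PEG-glutaminase tumours, and Ccl17, the other CCR4 ligand, from 6.87 to 18.6 and from 7.20 to 11.9. Ccr8, a receptor enriched on regulatory T cells in tumours, had 37 reads over the vehicle libraries and 11 over the PEG-glutaminase libraries and was too low to test, although its groups did not overlap. Ccr4 had 9 and 6 reads, and Ccr6, a receptor of Th17 cells, had 7 and 9. The epithelial and skin ligands Ccl25 and Ccl28 and the receptor Ccr9 had log2 differences of 0.21 ± 0.28, -0.28 ± 0.50 and -0.59 ± 0.39, with overlapping groups in each. Exons of other genes overlap 21.5% of the exon bases of Ccr9, 18.7% of those of Xcl1 and 25.7% of those of Ackr1. Reads there cannot be assigned with certainty, as in Cxcl16. Ccl28 ranged from 9.81 to 11.6 normalized counts in vehicle and from 5.18 to 17.5 in PEG-glutaminase tumours. Ccr10, the skin homing receptor, had 19 reads over the vehicle and 31 over the PEG-glutaminase libraries, whereas Ccl20 had 3 and 2, Ccl27a 0 and 3, and Cxcl17 1 and 1. No read was found for Ccl26 or Ccl27b. Ccl27a and Ccl27b share 69.2% and 98.1% of their 50-base words with other genes, so their low levels are uncertain. Of the scavenging receptors, Ackr2 had 26 reads in vehicle and 7 in PEG-glutaminase libraries, again without overlap, Ackr1 had 9 and 20, and Ackr4 had 7 and 1. In all, 19 members stayed below a mean of 10 normalized counts, of which 6 had no read in any library.

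Related genes were counted from lists, and in the 5 lists that follow limma called 0. Of all tested genes, 8.92% were higher and 9.51% lower at an unadjusted limma p under 0.05. DESeq2 called 1.59% of all genes higher and 2.0% lower. In the CXCR3 axis, which the rule leaves out, 4 of 4 genes had a difference below 0, with a median of -0.85. There 3 genes were lower at an unadjusted limma p under 0.05 and DESeq2 called 2 lower, Cxcl10 and Cxcl11. Among 9 tested family genes outside the name pattern DESeq2 called 2 lower, Xcr1 and Rarres2, the chemerin gene (-0.54 ± 0.12, DESeq2 adjusted p = 0.0118). Among 27 tested genes of signalling below the receptors, 13 differences were above 0 and 14 below, and DESeq2 called 1, Rgs2, an inhibitor of G protein signalling (-0.68 ± 0.15, DESeq2 adjusted p = 0.0135). At an unadjusted limma p under 0.05, 1 gene of that list was higher and 3 were lower (3.70% and 11.1% of the list). Among 17 tested NF-kB and cytokine genes that induce chemokines, 12 differences were below 0 and DESeq2 called 0. Only Tnf, an inflammatory cytokine of macrophages and T cells, had an unadjusted limma p under 0.05 in that list, at 81.1, 104 and 97.1 in vehicle and 70.4, 49.5 and 53.5 in PEG-glutaminase tumours. Among 19 tested genes that cleave, shed or anchor chemokines, DESeq2 called Mmp9 higher and Ctsg and Sdc4 lower (5.26% and 10.5% of the list). Mmp9, a gelatinase that trims several chemokines, stood at 220, 178 and 195 in vehicle and at 348, 327 and 398 in PEG-glutaminase tumours (log2 difference 0.85 ± 0.13, limma adjusted p = 0.0954, DESeq2 adjusted p = 0.000168).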

How the data were processed

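Libraries were made from poly-T selected tumour RNA with random hexamer priming, per the labels' protocols. The deposited signal is read counts per BALB/cJ gene model divided by a size factor of the library, per the file headers and values. STAR, featureCounts, FastQC, DESeq and DESeq2 are listed in the submitters' processing notes; the build, strand setting and aligner options are not given in the sources used. The authors' own comparison in the same deposited table holds a log2 fold change, a Wald score and p-values, per the file headers.

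The table's 40396 rows hold 40303 gene models, each used once; 2902 without a symbol held 0.13% to 0.214% of reads. Groups and replicate numbers came from the sample titles. The main test, two-sided, was limma 3.58.1 (R 4.3.3, mean trend, robust) on log2(value + 1) of the 13557 genes that averaged 10 normalized counts or more, adjusted over all of them after Benjamini and Hochberg and read at 0.05. This scale understates the change of low genes. An exact permutation test of 3 against 3 cannot go below a p of 0.1. All values were whole multiples of 1 read within 0.01, so DESeq2 1.42.0 and edgeR 4.0.16 (quasi-likelihood, TMM) were run on the recovered reads as alternatives. The test was also run on simulated counts, whose outcome is not given here. No 2 libraries agreed within sampling noise.

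Levels per kilobase used the longest GENCODE M21 transcript. Shared sequence was read as 50-base words of those transcripts. Gene order and promoters came from RefSeq (GRCm38.p6), whose promoter table matched 41 of the 55 members. Promoters of Ccl2, Ccl4, Ccl5, Ccl7, Ccr7 and Cxcl16 were not used here. Of the tested members 1 enters the counts, medians and sums but is not reported here by itself. The members and lists were chosen with earlier results of these data known. Members with every value given were those called by limma, edgeR or DESeq2, with an unadjusted limma p under 0.05 or with groups that do not overlap, the 5 of highest mean, and their receptors or ligands; of other lists at most 4 genes of smallest p. Alternatives were TMM scaling, pseudocounts of 0.5 and 5, a minimum mean of 50 or none, the replicate number as a block, an adjusted p of 0.1, each library left out, and vehicle 1 and PEG-glutaminase 2 left out together. DESeq2 with each library left out, the colon markers and the neighbours Wfdc17 and Zmynd15 were added after seeing the data.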

Additional observations from a re-analysis of the deposited data

How the results depend on the processing

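By limma the count of members called was 0 in both directions at pseudocounts of 0.5 and 5, a mean of at least 50, TMM scaling, an adjusted p of 0.1, with each library left out and with vehicle 1 and PEG-glutaminase 2 left out together, and edgeR called 0 as well. Without a filter limma called 1 higher (Ccl9, limma adjusted p = 0.0179). DESeq2, run only with the filter at a mean of 10, called 2 higher and 2 lower. With the replicate number as a block limma called 1 higher (Ccl6, limma adjusted p = 0.00424) and 0 lower. Same-numbered tumours did not deviate together (r = -0.13, -0.21 and -0.22), so the numbers are not taken to pair the mice. Members whose groups did not overlap numbered 3 to 8 higher and 7 to 8 lower with 1 library left out, against 16.7% to 19.8% and 16.5% to 19.3% of all genes, and 12 lower without both vehicle 1 and PEG-glutaminase 2, against 24.1%. DESeq2 called 2 to 3 members higher and 0 to 3 lower with 1 library left out, against 0.503% to 2.03% and 0.862% to 3.23% of all genes.

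The median log2 difference stayed below 0 in every setting run, from -0.22 to -0.07 with 1 library left out. The median deviation of the tested members from their own means was -0.047, 0.060 and 0.294 in vehicle 1 to 3. In PEG-glutaminase 1 to 3 it was -0.0046, -0.018 and -0.071, so the groups overlapped, with vehicle 3 highest. The spread of these library medians within groups was 0.126 (SD). Over the alternatives of all 36 members 33 of 525 values changed sign. With 1 library left out these ranges crossed 0: Ccl2 -0.25 to 0.16, Ccl22 -0.38 to 0.23, Ccl24 -0.12 to 0.59, Ccl28 -0.33 to 0.0485, Ccr1 -0.037 to 0.18, Ccr2 -0.18 to 0.17, Cx3cl1 -0.11 to 0.063, Cxcl1 -0.61 to 0.20, Cxcl2 -0.999 to 0.0282, Cxcl3 -0.80 to 0.0732, Cxcl5 -0.33 to 0.39, Cxcr2 -0.29 to 0.16 and Xcl1 -1.18 to 0.16. Without both vehicle 1 and PEG-glutaminase 2 the sign changed for Ccl2 (0.0237), Ccl24 (-0.0219), Ccl25 (-0.0653), Ccr1 (-0.0379), Cxcl1 (0.062), Cxcl2 (0.22), Cxcl3 (0.24), Cxcl5 (-0.65) and Cxcr2 (0.0943). For Ccl22 it changed in edgeR (0.0561) and DESeq2 (0.0512). The cause was not tested. Members below a mean of 10 normalized counts could not be tested at this depth.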

Other observations

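The authors' deposited table also gives its own comparison, whose means are not those of the 6 library columns, and what else entered it is not known here. Of 10334 genes with a mean over 100, 59.0% had a mean in the authors' deposited table that differed by over 1% from the mean of the 6 libraries. The neutrophil ligands stood furthest from the 6 libraries among the tested members. For Cxcl1 the authors' deposited table lists a mean of 716 against 132 in the 6 libraries, 5.43 times as high, with a log2 fold change of 2.72 and no p-value. For Cxcl5 the authors' deposited table lists a mean of 113 against 44.6, a log2 fold change of 1.98 and no p-value. For Cxcl3 it is 48.4 against 27.5 with 0.98 in the authors' deposited table, and for Cxcl2 105 against 62.3 with 0.99 and an adjusted p of 0.593. In the 6 libraries Cxcl1, Cxcl2 and Cxcl3 had log2 differences below 0, as given above, so the sign differs between the 2 sources.

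For Ccl6 the authors' deposited table lists a log2 fold change of 1.02 with an adjusted p of 0.120, and for Ccl9 0.57 with an adjusted p of 0.0167. For Cx3cr1 the authors' deposited table lists -0.66 with an adjusted p of 0.0208, and for Cxcl16 -0.41 with an adjusted p of 0.190. These 4 have the same sign as in the 6 libraries. For Ccl3 the authors' deposited table lists 0.10 with an adjusted p of 0.930, against -0.72 in the 6 libraries, and for Ccl4 -0.06 with an adjusted p of 0.978, against -0.84. In all, 11 of the 36 tested members have another sign in the authors' deposited table than in the 6 libraries. Beside Cxcl1, Cxcl2, Cxcl3 and Ccl3 these are Ccl2 (0.55 in the authors' deposited table against -0.09), Ccl12 (-0.07 against 0.23), Ccl24 (-0.24 against 0.31), Cxcl13 (0.53 against -0.34), Cxcr2 (0.46 against -0.03), Cx3cl1 (0.10 against -0.04) and Ccl28 (0.02 against -0.28).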
